A study of Mus musculus with 8 samples.

Results

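A set of 10 genes for lineage-defining transcription factors of mimetic medullary thymic epithelial cells (mTECs) was examined across sorted embryonic thymic epithelial cells (TECs). The genes were *Spib*, *Hnf4a*, *Foxa2*, *Foxj1*, *Spdef*, *Ptf1a*, *Foxi1*, *Insm1*, *Myog*, and *Neurod1*. They were chosen by name from 55450 genes in the count table, and all 10 passed the expression filter that left 21451 genes tested. The cells were sorted at embryonic day 17 (E17) as CD45-EpCAM+ TECs from embryos that carried both a tdTomato knock-in reporter of *Ccl21a* and a *Tnfrsf11a* (RANK)-Venus reporter transgene. There were 3 libraries of CCL21+RANK- TECs, 3 libraries of CCL21-RANK+ TECs, and 2 libraries of CCL21-RANK- TECs. Every group carried the same reporters, and only the tdTomato and Venus gates of the sort differed by design. The gates therefore follow reporter proteins rather than CCL21 or RANK themselves, and neither the labels nor the methods state whether libraries came from separate litters, so p-values measure the spread between these libraries.

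Mimetic mTECs are medullary cells that take on the expression programme of a cell type found outside the thymus, such as a microfold, ciliated, muscle, or endocrine cell. Each programme is led by a transcription factor that specifies the matching cell type in its own tissue, and the resulting cells display tissue antigens to developing thymocytes. RANK is a receptor of the TNF receptor family whose signal drives maturation of mTECs, and Aire is the nuclear protein that promotes promiscuous gene expression in mature mTECs. CCL21 is a chemokine that attracts thymocytes to the medulla.

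The libraries held 59677340, 46003136, and 55116928 counts in CCL21+RANK- TECs, 57286804, 50146756, and 42751867 in CCL21-RANK+ TECs, and 67451453 and 71625303 where both reporters were absent. Levels are given in RPKM, which scales the counts of a gene by its exon length and the library total. *Tnfrsf11a* was at 111, 93.1, and 107 RPKM in CCL21-RANK+ TECs, at 8.78, 9.44, and 10.3 RPKM in CCL21+RANK- TECs, and at 2.62 and 2.26 RPKM in CCL21-RANK- TECs, so it was highest in the population gated as Venus-positive. The mean of *Aire* in CCL21-RANK+ TECs was 113 ± 18.4 RPKM (SD, n = 3), and the other 5 libraries were below 1 RPKM. *Ccl21a* was highest in CCL21+RANK- TECs, at 561, 346, and 305 RPKM, but was also at 152, 95.9, and 78.2 RPKM in CCL21-RANK+ TECs, against 6.88 and 8.87 RPKM in CCL21-RANK- TECs. Near-identical copies of *Ccl21a* share its reads, so its level is uncertain. *Epcam* and *Foxn1*, which mark TECs, were detected in every library, with *Foxn1* at 50.7 to 105 RPKM.

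Some libraries stood apart. Parathyroid genes were abundant in the CCL21+RANK- libraries, where the 6 listed markers summed to 7277, 1823, and 2039 RPKM, with *Chga* the most abundant, against 24.1 to 57.9 RPKM in the other 5 libraries. Their part in the results was not tested. Replicate 1 of CCL21-RANK+ TECs had the most genes with a count, 26931, against 24121 and 24998 in the other replicates, and it was the highest of the 3 for 8 of the 10 factors. By comparison, 40.6% of all tested genes were highest in that library after TMM scaling. The noncoding gene *Gm26917* took 6.89% to 19.4% of the counts of a library and 1.47% to 10.7% went to *Gm42418*, at the expense of all other RPKM values.

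CCL21-RANK+ TECs had higher levels than CCL21+RANK- TECs of 9 of the 10 factors (edgeR, adjusted p-value below 0.05, passed in this direction by 30.6% of all tested genes), and *Hnf4a* was the exception. Of these, *Foxa2*, *Ptf1a*, and *Neurod1* passed the expression filter only through the CCL21-RANK+ libraries, so their direction was fixed in advance. *Insm1* and *Spib* dominated, with means of 194.5 ± 18.6 and 130.3 ± 13.7 RPKM (SD, n = 3). *Myog* followed at 38.4 ± 23.5 RPKM and *Foxj1* at 11.2 ± 8.41 RPKM. The other 6 factors were scarce in the same cells, from *Foxi1* at 1.96 ± 0.926 RPKM through *Foxa2* at 1.39 ± 0.693, *Spdef* at 1.08 ± 0.562, *Ptf1a* at 0.941 ± 0.498, and *Neurod1* at 0.586 ± 0.394, to *Hnf4a* at 0.379 ± 0.402 RPKM. Each of the 4 most abundant factors was separated from the next in every CCL21-RANK+ library, whereas neighbours from *Foxi1* down to *Hnf4a* overlapped. *Insm1* and *Spib* together made up 77.0%, 90.2%, and 90.0% of the summed RPKM of the 10 factors in the 3 CCL21-RANK+ libraries.

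**Figure D1:**
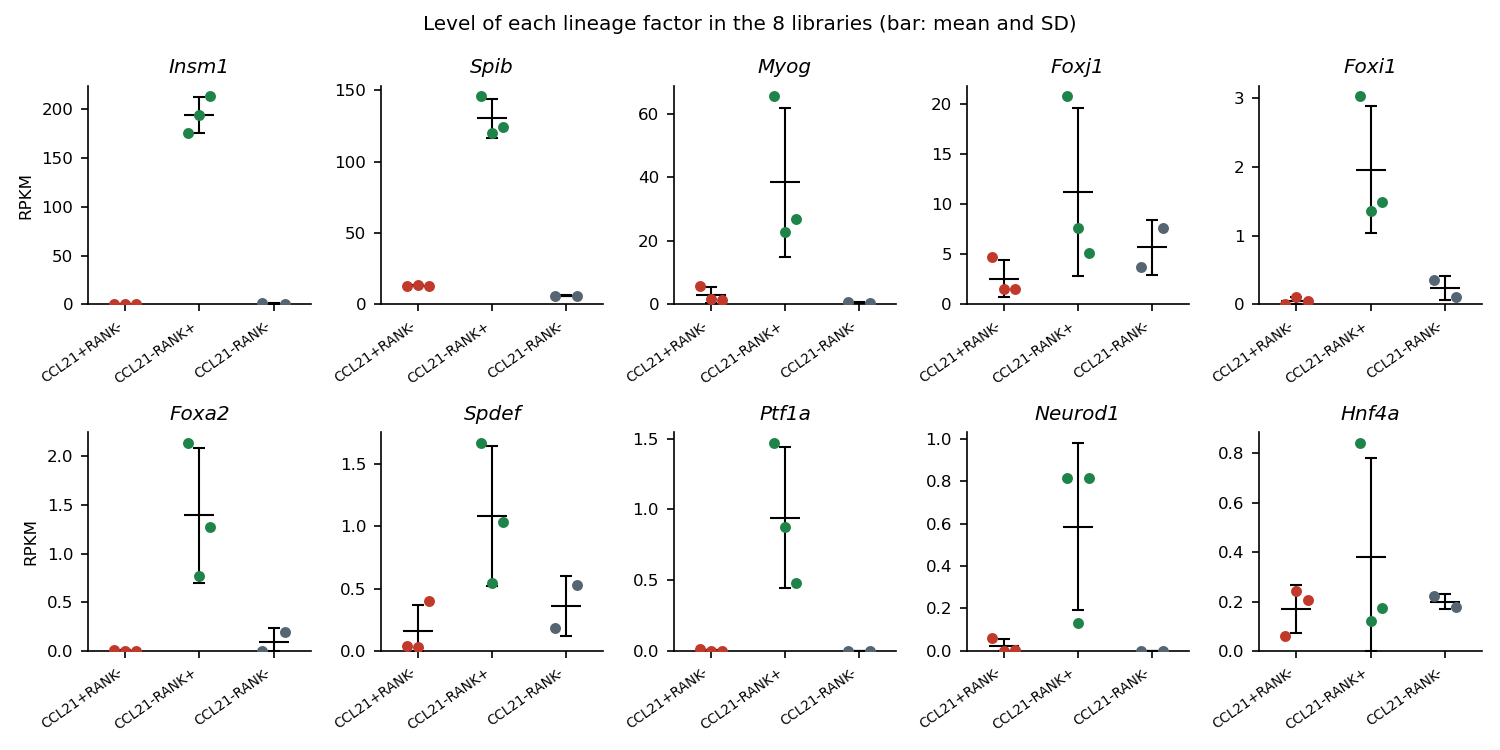
RPKM of each factor (vertical axis, starting at 0 and scaled separately for each gene) in the libraries of the 3 sorted populations. Points are libraries and bars are the mean and SD of a group, cut at 0. The CCL21-RANK+ points stand above the others for *Insm1* and *Spib*, and replicate 1, the leftmost point, is the highest of that group in 8 of the 10 panels.

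The order differed in the other populations. In CCL21+RANK- TECs the level of *Spib* led at 13.2 ± 0.254 RPKM (n = 3), followed by *Myog* at 2.98 ± 2.47 and *Foxj1* at 2.58 ± 1.83 RPKM, which overlapped, and the other 7 factors were each below 1 RPKM. In CCL21-RANK- TECs *Spib* at 6.03 ± 0.343 RPKM and *Foxj1* at 5.72 ± 2.73 RPKM (n = 2) overlapped, and the other 8 means were below 1 RPKM. All 10 factors had counts in each CCL21-RANK+ library, whereas CCL21+RANK- libraries lacked 1, 3, and 2 of them and CCL21-RANK- libraries lacked 3 and 2. In sorted bulk samples, fewer cells that express a factor and less RNA per cell cannot be told apart.

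To compare populations, each gene was tested with the quasi-likelihood test of edgeR in a single fit of all 8 libraries. A gene was called at an adjusted p-value below 0.05, a fold change above 1.5, and a mean RPKM above 1 in the higher group. In CCL21-RANK+ over CCL21+RANK- TECs, 7 of 10 factors were called, all of them higher, where 15.4% of all tested genes were called higher. By adjusted p-value alone 9 of 10 were higher, against a background of 30.6%, and in 9 of 10 the groups did not overlap in that direction, against 36.9%. *Ptf1a* and *Neurod1* passed the p-value threshold without being called because their mean RPKM was below 1. In CCL21-RANK+ over CCL21-RANK- TECs, 5 of 10 factors were called, all higher, against 14.4% of tested genes. By adjusted p-value alone 7 of 10 were higher, against 27.0%, and 8 of 10 had groups that did not overlap, against 38.8%. These comparisons share the CCL21-RANK+ libraries, so they are not independent. *Foxa2*, *Ptf1a*, and *Neurod1* passed the expression filter only through those libraries. Their direction in both comparisons was thereby fixed, and they add no support to these counts. The same holds for some genes of the lineage lists and of the background, such as *Neurog3*. Between CCL21+RANK- and CCL21-RANK- TECs 1 factor, *Spib*, was called, higher in CCL21+RANK- TECs, where 4.36% of tested genes were called in that direction. There, 2 of 10 factors, *Spib* and *Myog*, had non-overlapping groups with higher values in CCL21+RANK- TECs, against a background of 18.4%, and 1 of 10, *Foxi1*, had lower values, against 20.5%. For *Foxi1* the nearest libraries were at 0.111 and 0.113 RPKM, a margin that depends on the scaling.

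**Figure D2:**
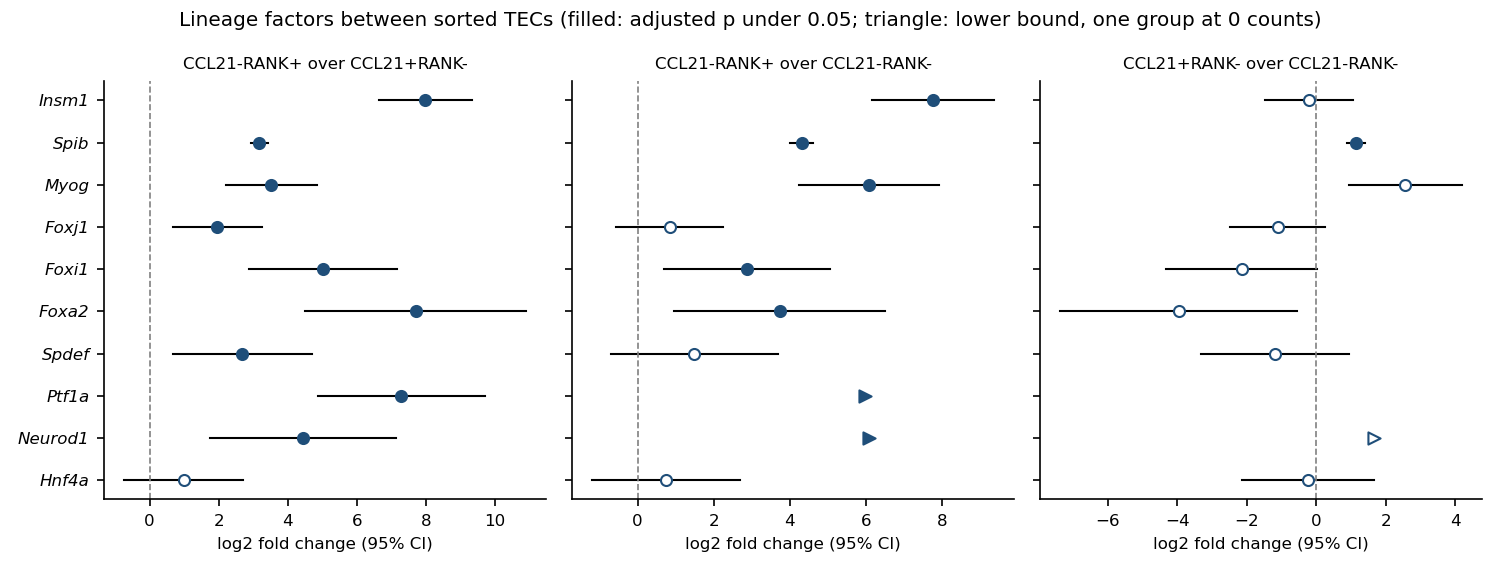
Log2 fold change (horizontal axis) of the 10 factors in the 3 comparisons, with 95% intervals from edgeR as lines. Filled symbols passed an adjusted p-value of 0.05, triangles are lower bounds where one group was at 0 counts, and *Ptf1a* is left out of the third panel because it had 1 count in one group and 0 in the other. In the first panel 9 of 10 symbols are filled, and *Hnf4a* is open.

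*Spib* encodes an ETS-family factor that is required for intestinal microfold cells, which carry antigens across the epithelium over lymphoid follicles, and it also acts in B cells and plasmacytoid dendritic cells. The gene (ENSMUSG00000008193.13) lies on chromosome 7, from 44525993 to 44532071 on the minus strand of GRCm38. It was at 146, 120.4, and 125 RPKM in CCL21-RANK+ TECs, at 13.2, 13.4, and 12.9 RPKM in CCL21+RANK- TECs, and at 5.78 and 6.27 RPKM in CCL21-RANK- TECs. The 3 populations did not overlap, and the replicates within each lay close together. The fold change of CCL21-RANK+ over CCL21+RANK- TECs was 9.06-fold (log2 fold change 3.18, SE 0.11, adjusted p = 1.25e-07 in edgeR). Against CCL21-RANK- TECs the log2 fold change was 4.31 (SE 0.14, adjusted p = 1.22e-07 in edgeR). CCL21+RANK- TECs in turn exceeded CCL21-RANK- TECs by 2.19-fold (log2 fold change 1.13, SE 0.12, adjusted p = 0.000492 in edgeR).

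Of 10 listed microfold genes, 8 were called higher and 1 lower in CCL21-RANK+ over CCL21+RANK- TECs, with a median log2 fold change of 5.87, against 0.11 for all tested genes. *Tnfrsf11b*, which encodes osteoprotegerin, a decoy receptor for the RANK ligand, was at 62.2, 38, and 37.7 RPKM in CCL21-RANK+ TECs and at 0.131 RPKM or lower in CCL21+RANK- TECs (log2 fold change 8.53, adjusted p = 2.25e-07 in edgeR). The chemokine gene *Ccl9* had 0 counts in CCL21+RANK- TECs and was at least 302-fold higher in CCL21-RANK+ TECs, counting 3 counts over the group as the floor. *Marcksl1*, an actin regulator, was 0.86 higher on the log2 scale (adjusted p = 0.00016 in edgeR), and *Anxa5*, a phospholipid-binding protein, had a log2 fold change of 0.00 (adjusted p = 0.995 in edgeR). Of 7 listed genes of B cells and plasmacytoid dendritic cells, 6 were tested, 1 was called higher and 2 lower, and 3 were higher by adjusted p-value alone. *Pax5*, the B-cell commitment factor, was called higher, with 752, 416, and 421 counts in the CCL21-RANK+ libraries (log2 fold change 7.49, adjusted p = 9.42e-06 in edgeR), and *Irf8* and *Tcf4* were called lower. *Irf8*, the most abundant of the list, was at 19.7 to 30.9 RPKM in these libraries, with 12500, 7079, and 5936 counts. *Ms4a1* had 86, 13, and 18 counts and *Siglech* 11, 0, and 1, where *Spib* had 23986, 17316, and 15275. The part of such cells in the *Spib* result was not tested.

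*Insm1* encodes a zinc-finger repressor needed for the development of endocrine cells of the pancreas, gut, and lung. The gene (ENSMUSG00000068154.5) lies on chromosome 2, from 146221921 to 146225020 on the plus strand. It was at 176, 194, and 213 RPKM in CCL21-RANK+ TECs, at 0.589, 0.905, and 0.638 RPKM in CCL21+RANK- TECs, and at 1.37 and 0.239 RPKM in CCL21-RANK- TECs. The CCL21-RANK+ libraries stood far above the others, whose values overlapped. The log2 fold change was 7.98 over CCL21+RANK- TECs (253-fold, SE 0.60, adjusted p = 4.65e-06 in edgeR) and 7.77 over CCL21-RANK- TECs (SE 0.71, adjusted p = 1.93e-05 in edgeR). The latter was 9.62 without CCL21-RANK- replicate 1 and 6.96 without replicate 2. Between the RANK- populations the log2 difference was -0.21 (95% interval -1.47 to 1.05, adjusted p = 0.889 in edgeR), and it depended on CCL21-RANK- replicate 1, without which CCL21+RANK- TECs were higher by 1.64 (adjusted p = 0.0378 in edgeR). *Insm1* exceeded *Aire* in RPKM in every CCL21-RANK+ library.

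*Neurod1* encodes a basic helix-loop-helix (bHLH) factor of endocrine and neuronal differentiation that is expressed together with *Insm1* in many endocrine cells. The gene (ENSMUSG00000034701.9, chromosome 2, 79452521 to 79456751, minus strand) shares exon sequence with *Cerkl* on the same strand, which had 1 to 43 counts per library, and with the antisense gene *Gm26755*, so its low counts are uncertain. It was at 0.812, 0.132, and 0.814 RPKM in CCL21-RANK+ TECs, at 0.0614, 0, and 0.00665 RPKM in CCL21+RANK- TECs, and at 0 in both CCL21-RANK- libraries. Replicate 2 was low, but all CCL21-RANK+ values lay above the rest. The log2 fold change was 4.44 over CCL21+RANK- TECs (SE 1.19, adjusted p = 0.0123 in edgeR), or 6.95 without CCL21+RANK- replicate 1, which held 10 of the 11 counts of its group, and the level was at least 68.1-fold higher than in CCL21-RANK- TECs (adjusted p = 0.00582 in edgeR). *Insm1* was 217-fold, 1475-fold, and 262-fold higher than *Neurod1* per length in the 3 CCL21-RANK+ libraries.

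Of 16 listed neuroendocrine genes, 15 were tested, and 4 were called higher and 2 lower in CCL21-RANK+ over CCL21+RANK- TECs, with a median log2 fold change of 3.46. By adjusted p-value alone 11 were higher and 2 lower. *Neurog3*, which starts endocrine differentiation in the pancreas, was at 1.24, 1.01, and 2.5 RPKM against 0 counts, at least 126-fold higher. The LIM-homeobox gene *Isl1* was lower, by 1.15 on the log2 scale (log2 fold change -1.15, adjusted p = 5.27e-05 in edgeR). *Chga*, the granin gene of endocrine and parathyroid cells, was also lower, at 12.4, 2.55, and 4.06 RPKM against 4061, 878, and 1020 RPKM (log2 fold change -8.45, adjusted p = 3.47e-05 in edgeR). *Chga* is also on the parathyroid list, which was high in the same CCL21+RANK- libraries.

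*Myog* encodes myogenin, the bHLH factor that drives terminal differentiation of skeletal muscle. The gene (ENSMUSG00000026459.5) lies on chromosome 1, from 134289989 to 134292548 on the plus strand. It was at 65.5, 22.8, and 27.0 RPKM in CCL21-RANK+ TECs, at 5.82, 1.83, and 1.29 RPKM in CCL21+RANK- TECs, and at 0.625 and 0.392 RPKM in CCL21-RANK- TECs. The 3 populations did not overlap, and replicate 1 was the highest in each of them. The log2 fold change was 3.53 over CCL21+RANK- TECs (SE 0.59, adjusted p = 0.000758 in edgeR) and 6.08 over CCL21-RANK- TECs (SE 0.82, adjusted p = 0.000232 in edgeR). Without CCL21+RANK- replicate 1 the former was 4.47. CCL21+RANK- over CCL21-RANK- TECs gave 2.56 (SE 0.73, adjusted p = 0.0509 in edgeR), just outside the threshold, and 6 of 16 alternatives placed it inside, with adjusted p-values over the alternatives from 0.000684 to 0.311. The log2 fold change itself ranged from 1.62 to 3.01 over these alternatives.

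Of 16 listed muscle genes, all tested, 9 were called higher and 0 lower in CCL21-RANK+ over CCL21+RANK- TECs, with a median log2 fold change of 3.37. An adjusted p-value alone placed 12 genes higher and 0 lower. The fast myosin light chain gene *Mylpf* was at 31.3, 4.15, and 4.58 RPKM against 4.20, 1.23, and 0.461 RPKM (log2 fold change 2.57, adjusted p = 0.0351 in edgeR). Muscle creatine kinase, *Ckm*, was at 27.9, 1.28, and 3.72 RPKM against 0.857, 0.0895, and 0.00623 RPKM (log2 fold change 4.88, adjusted p = 0.0142 in edgeR). Cardiac actin, *Actc1*, was higher by 2.60 (adjusted p = 0.00925 in edgeR), while skeletal actin, *Acta1*, had a log2 fold change of 2.21 with overlapping groups (adjusted p = 0.182 in edgeR). The summed list was at 161, 30.8, and 41.1 RPKM in CCL21-RANK+ TECs and at 19.4, 7.42, and 2.65 RPKM in CCL21+RANK- TECs, so that replicate 1 led in each of these groups, as it did for *Myog*. Without CCL21-RANK+ replicate 1, or without CCL21+RANK- replicate 2, 5 of the 16 genes were called higher.

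*Foxi1* encodes the forkhead factor that specifies ionocytes, the acid-base and chloride-handling cells of airway, kidney, and inner ear. The gene (ENSMUSG00000047861.2) lies on chromosome 11, from 34204338 to 34208089 on the minus strand. It was at 3.03, 1.36, and 1.5 RPKM in CCL21-RANK+ TECs, at 0, 0.111, and 0.0539 RPKM in CCL21+RANK- TECs, and at 0.359 and 0.113 RPKM in CCL21-RANK- TECs. The 3 populations did not overlap in RPKM, but the margin between CCL21+RANK- replicate 2 (12 counts) and CCL21-RANK- replicate 2 (19 counts) was narrow. *Gm26917* and *Gm42418*, which count in the totals, took 11.8% and 10.7% of the former library. They took 6.89% and 1.47% of the latter, so the separation of these 2 groups depends on the scaling. *Foxi1* was higher than in CCL21+RANK- TECs by 5.03 on the log2 scale (SE 0.96, adjusted p = 0.00166 in edgeR), or by 4.42 without CCL21+RANK- replicate 1 and 6.13 without replicate 2. Over CCL21-RANK- TECs it was 2.88 (SE 0.98, adjusted p = 0.0333 in edgeR), and this call was lost without any 1 of CCL21-RANK+ replicate 1 (2.5, adjusted p = 0.0761 in edgeR), CCL21-RANK+ replicate 3 (3.09, 0.0562), CCL21-RANK- replicate 1 (4.04, adjusted p = 0.0545), or CCL21-RANK- replicate 2 (2.24, adjusted p = 0.198). Of 10 listed ionocyte genes, 3 were called higher and 0 lower in CCL21-RANK+ over CCL21+RANK- TECs, with a median log2 fold change of 4.15, and 7 were higher by adjusted p-value alone. Those called were *Cftr*, the chloride channel of cystic fibrosis, at 4.28 (adjusted p = 0.000356 in edgeR), *Bsnd*, the chloride channel subunit barttin, at 4.04 (adjusted p = 0.00187 in edgeR), and *Slc26a4*, the anion exchanger pendrin, at 7.81 (adjusted p = 8.6e-05 in edgeR).

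The 250 bases upstream of the transcription start were searched for the E-box CANNTG, the motif bound by bHLH factors, because *Myog*, *Ptf1a*, and *Neurod1* encode such factors. RefSeq promoter entries (GRCm38.p6) matched 8 of the 10 genes with 11 windows, and *Insm1* and *Foxj1* had none. The motif reads the same class of letters on both strands. At least 1 E-box was found in 7 of 11 windows, where 66.2% of 32851 promoter windows of this length hold one, so the share was near the background. The called factors whose windows held 2 E-boxes were *Spib* at chr7:44532072-44532321 (minus strand), *Myog* at chr1:134289754-134290003 (plus strand), and *Foxi1* at chr11:34208090-34208339 (minus strand). They are shown 5′ to 3′ in the direction of the gene, with E-boxes in capitals.
Spib: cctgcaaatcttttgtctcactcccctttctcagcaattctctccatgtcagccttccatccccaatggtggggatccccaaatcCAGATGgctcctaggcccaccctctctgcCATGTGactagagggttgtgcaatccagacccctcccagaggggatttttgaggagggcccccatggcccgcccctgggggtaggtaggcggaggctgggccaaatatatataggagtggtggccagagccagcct
Myog: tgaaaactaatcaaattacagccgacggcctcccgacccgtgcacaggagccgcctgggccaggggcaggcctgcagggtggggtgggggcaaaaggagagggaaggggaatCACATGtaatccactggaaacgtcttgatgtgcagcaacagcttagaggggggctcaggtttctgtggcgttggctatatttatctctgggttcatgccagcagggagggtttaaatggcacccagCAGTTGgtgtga
Foxi1: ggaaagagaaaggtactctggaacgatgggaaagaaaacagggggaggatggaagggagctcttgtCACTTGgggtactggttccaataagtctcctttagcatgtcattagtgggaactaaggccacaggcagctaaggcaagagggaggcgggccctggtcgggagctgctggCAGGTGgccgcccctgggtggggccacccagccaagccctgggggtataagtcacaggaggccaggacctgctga
The ETS core GGAAGT was found in 1 of 11 windows (19.7% of all promoters), TATAAA in 1 of 11 (12.4%), and an NF-kB motif in 1 of 11 (4.11%), that of *Spdef*. Each was searched on both strands, and no match overlapped a match of another motif.

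*Foxa2* and *Spdef* encode factors of secretory epithelium. *Foxa2* is a forkhead pioneer factor of endoderm, and *Spdef* is an ETS factor of goblet and mucous cells. *Foxa2* (ENSMUSG00000037025.11, chromosome 2, 148042877 to 148046969, minus strand) was at 2.14, 0.766, and 1.27 RPKM in CCL21-RANK+ TECs, at 0.0141, 0, and 0 RPKM in CCL21+RANK- TECs, and at 0 and 0.194 RPKM in CCL21-RANK- TECs. The CCL21-RANK+ libraries did not overlap the others, of which 3 of 5 had no count. With 510 counts against 2, the depth-scaled ratio over CCL21+RANK- TECs was 252, with a counting interval of 69.3 to 2083 (fitted log2 fold change 7.70, SE 1.43, adjusted p = 0.00142 in edgeR). Both of those counts were in CCL21+RANK- replicate 1. Over CCL21-RANK- TECs the log2 fold change was 3.74 (SE 1.24, adjusted p = 0.0308 in edgeR), a call lost without CCL21-RANK+ replicate 1 (3.36, adjusted p = 0.066 in edgeR), CCL21-RANK+ replicate 3 (3.84, 0.0613), or CCL21-RANK- replicate 1 (2.76, adjusted p = 0.0686), and when replicate numbers entered as a block (4.16, 0.0621). All 33 counts of *Foxa2* in CCL21-RANK- TECs were in replicate 2.

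*Spdef* (ENSMUSG00000024215.14, chromosome 17, 27714352 to 27728955, minus strand) was at 1.67, 0.545, and 1.04 RPKM in CCL21-RANK+ TECs, at 0.0436, 0.0283, and 0.401 RPKM in CCL21+RANK- TECs, and at 0.187 and 0.527 RPKM in CCL21-RANK- TECs. The CCL21-RANK+ values lay above all others, but by a narrow margin between CCL21-RANK+ replicate 2 and CCL21-RANK- replicate 2. *Spdef* exceeded its level in CCL21+RANK- TECs by 2.69 on the log2 scale (SE 0.90, adjusted p = 0.0294 in edgeR). That call was lost without CCL21+RANK- replicate 1 (2.24, adjusted p = 0.0741 in edgeR) or 2 (2.25, 0.0802), or CCL21-RANK+ replicate 1 (2.29, 0.0757) or 3 (2.75, 0.0612), and the difference was 4.67 without CCL21+RANK- replicate 3. Over CCL21-RANK- TECs it was 1.49 (95% interval -0.71 to 3.68, adjusted p = 0.24 in edgeR), and it ranged from 0.96 to 2.32 over the alternatives.

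Of 13 listed secretory genes, all tested, 7 were called higher and 1 lower in CCL21-RANK+ over CCL21+RANK- TECs, with a median log2 fold change of 4.83. *Tff3*, a trefoil peptide of goblet cells, was at 28.6, 3.72, and 4.22 RPKM against 0.034, 0, and 0.0368 RPKM (log2 fold change 8.54, adjusted p = 0.000391 in edgeR). The antimicrobial gene *Wfdc2* was higher by 1.08 (adjusted p = 0.00107 in edgeR), whereas *Fcgbp*, a mucus protein, had a log2 fold change of 0.59 (adjusted p = 0.237 in edgeR). *Bpifa1*, a secreted airway protein, was at 104 and 123 RPKM in CCL21-RANK- TECs and at 41.5, 31.5, and 30.2 RPKM in CCL21-RANK+ TECs, and so was lower in the latter, with a log2 fold change of -1.84 (adjusted p = 0.00679 in edgeR).

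*Foxj1* encodes the forkhead factor that directs motile ciliogenesis. The gene (ENSMUSG00000034227.7) lies on chromosome 11, from 116330704 to 116335399 on the minus strand. It was at 20.8, 7.64, and 5.18 RPKM in CCL21-RANK+ TECs, at 4.70, 1.54, and 1.5 RPKM in CCL21+RANK- TECs, and at 3.79 and 7.64 RPKM in CCL21-RANK- TECs. The CCL21-RANK+ libraries lay above the CCL21+RANK- libraries and overlapped the CCL21-RANK- libraries. The log2 fold change over CCL21+RANK- TECs was 1.96 (SE 0.57, adjusted p = 0.0156 in edgeR), and it was lost without CCL21+RANK- replicate 2 (1.78, adjusted p = 0.0614 in edgeR), CCL21+RANK- replicate 3 (1.66, 0.0545), or CCL21-RANK+ replicate 1 (1.24, adjusted p = 0.0614). Without CCL21+RANK- replicate 1 it was 2.73. Over CCL21-RANK- TECs it was 0.85 (95% interval -0.56 to 2.25, adjusted p = 0.295 in edgeR), and it ranged from 0.13 to 1.34 over the alternatives.

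The ciliated list had the lowest median of the 10 lists. Of 14 listed genes, 1 was called higher and 3 lower in CCL21-RANK+ over CCL21+RANK- TECs, with a median log2 fold change of 0.49. By adjusted p-value alone 4 were higher and 3 lower. The axonemal dynein gene *Dnah5* was higher, at 3.58, 1.46, and 1.71 RPKM against 0.00643, 0.00973, and 0.029 RPKM (log2 fold change 7.08, adjusted p = 4.13e-06 in edgeR). A second axonemal dynein, *Dnah9*, was lower, at 1.66, 1.35, and 1.39 RPKM against 6.77, 8.01, and 8.06 RPKM (log2 fold change -2.50, adjusted p = 4.6e-07 in edgeR). *Tppp3*, a tubulin-binding protein, was lower (log2 fold change -1.05, adjusted p = 0.0195 in edgeR), and *Hydin*, a central-pair protein of motile cilia, was lower as well (log2 fold change -3.70, adjusted p = 8.61e-06 in edgeR). *Rfx3*, a ciliogenic transcription factor, had a log2 fold change of 0.37 (adjusted p = 0.0316 in edgeR), below the fold threshold. Without CCL21-RANK+ replicate 3, 2 genes were called higher and 2 lower, and without CCL21+RANK- replicate 2, 1 higher and 1 lower.

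*Ptf1a* encodes the bHLH factor of pancreatic acinar cells. The gene (ENSMUSG00000026735.2, chromosome 2, 19445663 to 19447501, plus strand) overlaps the antisense gene *Ptf1aos*, which had 0 counts in every library. It was at 1.47, 0.873, and 0.481 RPKM in CCL21-RANK+ TECs, at 0.0111, 0, and 0 RPKM in CCL21+RANK- TECs, and at 0 in both CCL21-RANK- libraries. A single count, in CCL21+RANK- replicate 1, was found in the 5 RANK- libraries, against 127, 66, and 31 counts in the CCL21-RANK+ libraries. The ratio over CCL21+RANK- TECs was 221, with a counting interval of 39.3 to 8767 (adjusted p = 0.000492 in edgeR), and the level was at least 63.6-fold higher than in CCL21-RANK- TECs (adjusted p = 0.000898 in edgeR). Of 12 listed acinar genes 8 were tested, and 4 were called higher and 0 lower in CCL21-RANK+ over CCL21+RANK- TECs. The median log2 fold change was 7.51, or 6.01 with genes at 0 counts set to their lower bound. The chymotrypsinogen gene *Ctrb1* was at 11.8, 2.66, and 1.39 RPKM against 0.0248 RPKM or less (log2 fold change 7.63, adjusted p = 0.00035 in edgeR). *Cel*, a lipase, and *Clps*, the lipase cofactor colipase, had 0 counts in CCL21+RANK- TECs and were at least 235-fold and 76.9-fold higher. Both bounds rest mostly on CCL21-RANK+ replicate 1, since the 3 libraries had 635, 12, and 67 counts of *Cel* and 177, 16, and 41 of *Clps*. Without CCL21-RANK+ replicate 1, 2 of the 12 genes were called higher.

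*Hnf4a* encodes the nuclear receptor that governs intestinal and liver epithelium. The gene (ENSMUSG00000017950.16) lies on chromosome 2, from 163506808 to 163572910 on the plus strand. It was at 0.842, 0.120, and 0.174 RPKM in CCL21-RANK+ TECs, at 0.059, 0.243, and 0.207 RPKM in CCL21+RANK- TECs, and at 0.221 and 0.179 RPKM in CCL21-RANK- TECs. Replicate 1 of CCL21-RANK+ TECs was high with 233 counts, and the other libraries, with 17 to 72 counts, overlapped. The log2 fold change was 0.99 over CCL21+RANK- TECs (95% interval -0.73 to 2.71, adjusted p = 0.309 in edgeR) and 0.75 over CCL21-RANK- TECs (95% interval -1.19 to 2.68, adjusted p = 0.51 in edgeR). Without CCL21-RANK+ replicate 1 both turned negative, to -0.29 and -0.53.

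The genes of the enterohepatic list were mostly higher in CCL21-RANK+ TECs. Of 14 listed genes 12 were tested, and 11 were called higher and 0 lower over CCL21+RANK- TECs, with a median log2 fold change of 6.45, or 5.85 with genes at 0 counts set to their lower bound. *Hnf4g*, the paralog of *Hnf4a*, was at 1.37, 0.948, and 0.880 RPKM against 0, 0.0248, and 0 RPKM (log2 fold change 6.88, adjusted p = 0.000362 in edgeR). The apolipoprotein genes *Apoa4* and *Apob* were higher by 7.72 and 9.19 (adjusted p = 0.000167 and 2.89e-06 in edgeR), and the antimicrobial lectin gene *Reg3g* by 7.20 (adjusted p = 0.000633 in edgeR). Without CCL21-RANK+ replicate 1, 8 of the 14 genes were called higher.

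**Figure D3:**
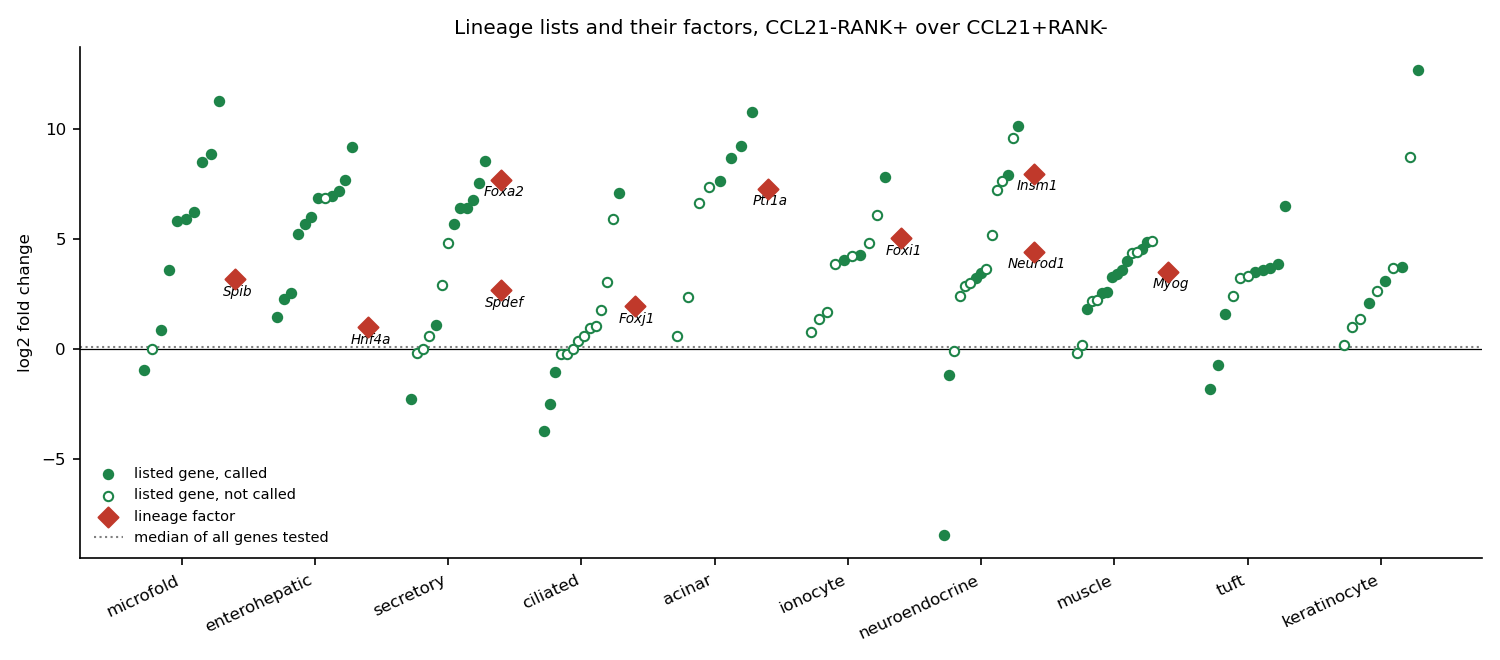
Log2 fold change of CCL21-RANK+ over CCL21+RANK- TECs (vertical axis) for the tested genes of 10 lineage lists (circles, filled where called) and the factors that lead them (diamonds). Genes with 0 counts in one group have fitted values that depend on the prior count. The enterohepatic genes lie far above *Hnf4a*, and the ciliated genes lie around 0 on both sides of it.

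Lists of lineages without a factor among the 10 were treated likewise. Of 12 listed tuft cell genes 11 were tested, and 6 were called higher and 2 lower in CCL21-RANK+ over CCL21+RANK- TECs, with a median log2 fold change of 3.34. The 2 lower genes became 1 without CCL21+RANK- replicate 1 or 2 or CCL21-RANK+ replicate 2 or 3. The tuft cell factor gene *Pou2f3* was lower, at 3.67, 2.93, and 2.94 RPKM against 10.8, 9.83, and 10.2 RPKM (log2 fold change -1.82, adjusted p = 8.1e-06 in edgeR), while the taste G-protein gene *Gnat3* was higher by 3.69 (adjusted p = 0.000787 in edgeR) and the actin-binding gene *Avil* by 3.89 (adjusted p = 0.000292 in edgeR). *Gfi1b*, a zinc-finger repressor, was higher by 6.51 (adjusted p = 0.00112 in edgeR). Of 10 listed keratinocyte genes 4 were called higher and 0 lower, with a median of 2.87, and 2 or 7 were called higher without CCL21-RANK+ replicate 1 or 2. *Hrnr*, a cornified-layer protein, was at least 774-fold higher, and *Krt10* was higher by 2.12 (adjusted p = 0.00765 in edgeR), whereas *Grhl1* and *Krtdap* had log2 fold changes of 0.17 and 1.37 (adjusted p = 0.388 and 0.204 in edgeR). Over the 10 lists together, 57 of 127 genes were called higher and 9 lower, with 119 tested, where 15.4% of all tested genes were called in each direction. Without CCL21-RANK+ replicate 1, 43 were called higher.

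Against CCL21-RANK- TECs the same lists gave 60 genes higher and 4 lower in CCL21-RANK+ TECs, beside 14.4% and 15.1% of all tested genes. The lists with the most genes called higher were the enterohepatic list with 11 of 14, the muscle list with 10 of 16, and the microfold list with 8 of 10. Without CCL21-RANK+ replicate 1 the enterohepatic count was 7, and without CCL21-RANK- replicate 1 the muscle count was 6. The ciliated list had 1 gene higher and 1 lower of 14, or 2 higher without CCL21-RANK+ replicate 3. CCL21+RANK- TECs had 11 of the 127 genes called higher and 5 lower than CCL21-RANK- TECs, beside 4.36% and 3.66% of all tested genes. The 5 lower genes became 0 without CCL21-RANK- replicate 2 and 2 when CCL21-RANK+ replicate 3 was left out. Leaving out CCL21+RANK- replicate 1 or 2 gave 3 lower genes.

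Besides *Insm1* and *Myog*, described above, 7 factors did not pass the test between CCL21+RANK- and CCL21-RANK- TECs with all 8 libraries. For *Foxi1* the log2 difference was -2.15 (95% interval -4.32 to 0.02, adjusted p = 0.203 in edgeR), and for *Foxj1* it was -1.12 (95% interval -2.48 to 0.25, adjusted p = 0.298 in edgeR). Over the alternatives *Foxi1* ranged from -3.20 to -0.99 and *Foxj1* from -1.88 to -0.63. The 95% intervals were -3.33 to 0.93 for *Spdef* and -2.15 to 1.67 for *Hnf4a*. *Spdef* passed without CCL21+RANK- replicate 3, at -3.18 (adjusted p = 0.0395 in edgeR). *Foxa2* had 2 counts against 33, all 33 of them in CCL21-RANK- replicate 2 (depth-scaled ratio 19.1 in favour of CCL21-RANK- TECs, counting interval 4.89 to 164, adjusted p = 0.135 in edgeR). It passed without CCL21-RANK- replicate 1 (adjusted p = 0.0362 in edgeR) and with no low-count filter (0.0325). *Neurod1* had 11 counts against 0, and was at least 3.17-fold higher in CCL21+RANK- TECs by counting alone (adjusted p = 0.215 in edgeR). That bound rests on CCL21+RANK- replicate 1, which held 10 of the 11 counts. *Ptf1a* had 1 count against 0.

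The factors differed in how much they varied among the CCL21-RANK+ libraries. After TMM scaling, the coefficient of variation was 5.35% for *Spib* and 13.1% for *Insm1*, below the median of 21.8% over all genes in that group. It was 41.6% for *Foxi1*, 44.8% for *Foxa2*, 47.2% for *Spdef*, 48.6% for *Ptf1a*, 55.8% for *Myog*, 66.1% for *Neurod1*, 69.9% for *Foxj1*, and 102% for *Hnf4a*. The median over all genes was not matched on abundance. *Insm1* had 28281 to 31287 counts in these libraries and *Spib* 15275 to 23986. *Myog* had 1712 to 5607 and *Neurod1* 18 to 127. How far the coefficients follow abundance was not tested. The highest library exceeded the lowest 1.10-fold for *Spib*, 2.01-fold for *Foxi1*, and 6.35-fold for *Hnf4a*. *Insm1* was lowest in replicate 1, where 8 other factors were highest, and all 10 lineage lists had their highest summed RPKM of the group in that replicate.

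**Figure D4:**
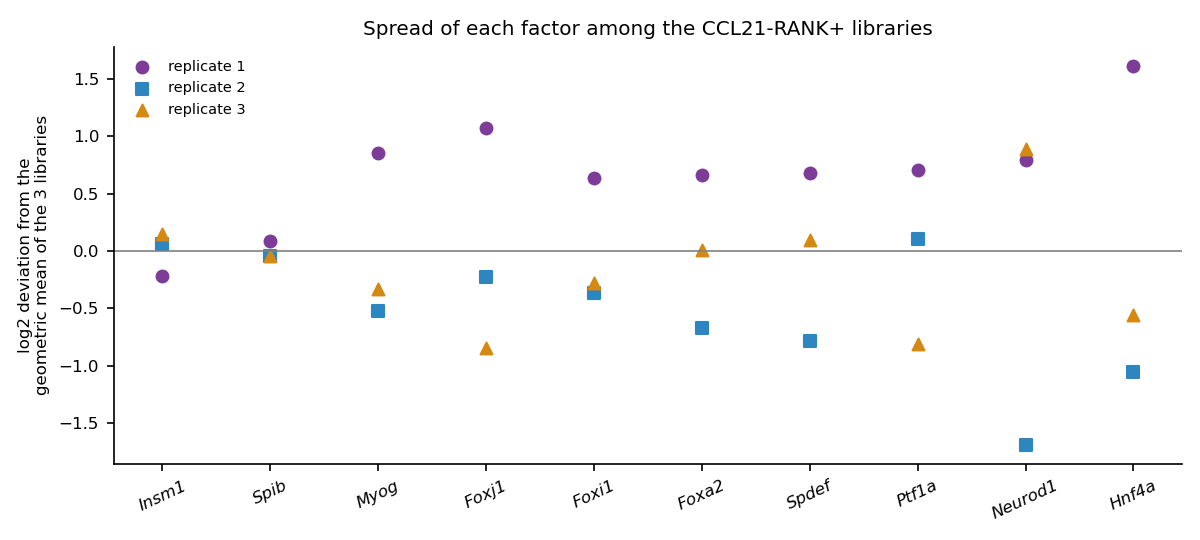
Log2 deviation (vertical axis) of each CCL21-RANK+ library from the geometric mean of the 3 libraries, after TMM scaling, for the 10 factors ordered by mean RPKM. Replicate 1 is highest for 8 factors and lowest for *Insm1*, and the points of *Spib* lie closest together.

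Markers of other cells also differed between the populations. In CCL21-RANK+ TECs the 9 thymocyte genes summed to 43.9, 25.1, and 35.5 RPKM, with *Tcf7* the most abundant, against 5.08 to 15 RPKM in the other libraries. The 6 mesenchymal genes, led by *Col1a1*, summed to 48.9, 25.1, and 31.1 RPKM against 1.33 to 3.27 RPKM. The 6 myeloid and dendritic genes, led by *Cd74*, which TECs also express, summed to 3496, 1982, and 2334 RPKM against 817 to 1451 RPKM. The 6 thyroid and C cell genes, led by *Calca*, summed to 30.8, 8.89, and 9.27 RPKM against 0.582 RPKM or less. The 5 endothelial genes, led by *Tek*, summed to 4.08, 2.2, and 1.90 RPKM against 0.450 RPKM or less, and the 5 neural crest and nerve genes, led by *Tubb3*, to 3.64, 2.60, and 2.94 RPKM against 0.482 RPKM or less. The B cell and plasmacytoid list summed to 36.4, 23.7, and 23.9 RPKM against 35.8 to 44.0 RPKM. The 5 erythroid genes, led by *Hbb-bs*, summed to 168, 245, and 271 RPKM in CCL21-RANK+ TECs, above 6.61, 148, and 53.8 RPKM in CCL21+RANK- TECs. The CCL21-RANK- libraries, at 405 and 50.5 RPKM, lay on both sides of the CCL21-RANK+ libraries. No marker of these 9 lists was at 0 in all 8 libraries. Their part in the results for the 10 factors was not tested.

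For each factor the genes with the most similar pattern over the 8 libraries were found by the Pearson correlation of log2 CPM, among about 13641 protein-coding genes. The libraries share 3 groups, so these values are descriptions. *Spib* was closest to *Kctd12* (r = 0.999) and *Minar1* (r = 0.998), *Insm1* to *Slc30a2* and *Tlr9* (both r = 0.996), and *Myog* to *Mctp1* (r = 0.996) and *Atp9a* (r = 0.995). *Foxi1* was closest to *Cftr* (r = 0.988), a gene of the ionocyte list, and *Sytl2* (r = 0.987). *Foxa2* was closest to *Qsox2* (r = 0.990) and *Rhbg* (r = 0.988), *Foxj1* to *Coq8a* (r = 0.9749) and *Stard3* (r = 0.974), and *Spdef* to *Vars* (r = 0.981) and *Comtd1* (r = 0.967). *Ptf1a* was closest to *Hps3* and *Mip* (both r = 0.996), and *Neurod1* to *Hhipl1* (r = 0.987) and *Igfbp1* (r = 0.984). *Hnf4a* had *Daglb* (r = 0.882) as a neighbour.

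Of the 10 genes 5, namely *Hnf4a*, *Foxa2*, *Ptf1a*, *Insm1*, and *Neurod1*, lie on chromosome 2, which holds 6.86% of the genes in the table. *Insm1* ends 1818 kb before *Foxa2* begins. Their mean levels in CCL21-RANK+ TECs were 194.5 and 1.39 RPKM.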

How the data were processed

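RNA-sequencing was analysed for 8 libraries of sorted E17 TECs. The authors deposited expected counts per gene, not normalized, and the submitters' notes name bcl2fastq 2.20, Trimmomatic, STAR 2.5.1, RSEM 1.3.1, and mm10. Between 4.47% and 5.94% of values were not whole and were rounded. The sample records name a NEBNext directional kit and the methods a TruSeq stranded kit. The strand setting of the counting is not given in the sources used here.

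Gene identifiers matched GENCODE M21 (GRCm38). edgeR 4.0.16 (R 4.3.3) used TMM scaling, its default expression filter, the quasi-likelihood test, and Benjamini-Hochberg adjustment. The common biological coefficient of variation was 0.326, so spread between libraries exceeded counting error. RPKM used library totals and summed exon length. The 95% intervals of log2 fold changes come from edgeR and include the spread between libraries, whereas intervals of count ratios and floors cover counting error only, since reads are not molecules. Ratios to 0 counts used 3 counts over the group. DESeq2 1.42.0 served as an alternative. Replicate pairs differed beyond sampling noise (chi-square per gene 77.3 to 275).

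The members and lists were chosen with earlier results of these data known. Named were all 10 members, *Ccl21a*, *Tnfrsf11a*, *Aire*, from each lineage list the 3 most abundant genes and the called gene with the largest fold change, from each list of other cells the most abundant gene, and the 2 genes most similar to each member. Other genes, such as *Hnf4g*, *Hydin*, *Ms4a1*, *Siglech*, and *Pax5*, were named after their values were seen. Some genes that this rule names are not reported here. Protein sequences were not analysed here.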

Additional observations from a re-analysis of the deposited data

How the results depend on the processing

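In CCL21-RANK+ over CCL21+RANK- TECs, leaving out 1 library gave 5 to 7 called factors against 7, with 5 without CCL21+RANK- replicate 2 or CCL21-RANK+ replicate 1, and 8 were called without *Gm26917* and *Gm42418*. Over CCL21-RANK- TECs, leaving out 1 library gave 3 to 5 called factors against 5. In CCL21+RANK- over CCL21-RANK- TECs, the DESeq2 Wald test, no low-count filter, the replicate number as a block, and only the groups compared each gave 2 called factors against 1, and leaving out 1 library gave 1 to 2. For all genes in that comparison, leaving out 1 library gave 652 to 2066 calls against 1721. An adjusted p-value alone called 11515 genes against 6616 in CCL21-RANK+ over CCL21+RANK- TECs and 10501 against 6332 in CCL21-RANK+ over CCL21-RANK- TECs. Directions that reversed were those of *Hnf4a*, whose log2 fold change ranged from -0.29 to 1.47 and from -0.53 to 1.16 in the comparisons of CCL21-RANK+ TECs and from -0.66 to 0.17 in the third, and, in the third, of *Foxa2* (-6.70 to 2.68, the latter without CCL21-RANK- replicate 2) and *Insm1* (-1.02 to 1.64, the latter without CCL21-RANK- replicate 1). The cause was not tested. Counts of lineage-list genes called higher without each library were added after seeing the data. Over all 10 lists they ranged from 43 to 66 against 57 and from 45 to 65 against 60 in CCL21-RANK+ over CCL21+RANK- and over CCL21-RANK- TECs, and from 8 to 12 against 11 in the third comparison. Counts of single lists moved by more than 1.5 times, such as the keratinocyte count over CCL21-RANK- TECs (6, or 2 without CCL21-RANK- replicate 1) and the ionocyte count there (3, or 1 without CCL21-RANK- replicate 2). With DESeq2's size factors the median of all genes moved from 0.06 to 0.20 in CCL21-RANK+ over CCL21-RANK- TECs.

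Libraries with the same replicate number are not stated to share embryos. Same-numbered deviations correlated at 0.126, 0.0483, and 0.0708 between CCL21+RANK- and CCL21-RANK+ TECs, above the -0.0986 to 0.0412 of different numbers. With CCL21-RANK- TECs the same-numbered values were negative, at -0.0529 and -0.117 for CCL21+RANK- TECs and -0.0519 and -0.0412 for CCL21-RANK+ TECs. The values were small and leaned both ways, so the numbers were not taken to pair the samples, though these values cannot settle the question. With the replicate number as a block, 4 factors were called in CCL21-RANK+ over CCL21-RANK- TECs, and *Hnf4a* turned to 0.0952 in CCL21+RANK- over CCL21-RANK- TECs.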
